A study of Homo sapiens with 6 samples.

Results

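The ID genes ID1, ID2, ID3 and ID4 were taken by symbol from the count files of MDA-MB-231 cells, a mesenchymal triple-negative breast cancer cell line, and all 4 symbols were found among 24462. ID proteins are helix-loop-helix proteins that lack the basic region needed to bind DNA. They dimerise with the E proteins TCF3, TCF4 and TCF12 and keep them off E-box sequences, and they are known for holding back differentiation. Their genes are classic targets of BMP receptors acting through SMAD1 and SMAD5, and in breast cancer ID1 and ID3 are known for roles in metastatic growth. Of the 4 genes, ID3 was the member that passed the test of a difference between groups: it fell where the label adds an ELK3 plasmid to miR-200a, against both other groups.

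RNA was harvested 48 h after transfection, and the 3 groups had 2 libraries each. The first group received a negative control (NC) mimic, called the control below, whose dose the labels do not give, and the second received the miR-200a mimic at 100 nM. The third group, called here the ELK3-labelled libraries because ELK3 itself was not higher in them, had the same mimic dose and 30 ng of an ELK3 plasmid, which the labels call both pcDNA3.1-Flag-ELK3 and pcDNA3.1 Hygro(+)-ELK3, and for which no empty-plasmid control is described. ELK3 is an ETS-family transcription factor, and the design asks what the miR-200a mimic changes and what adding ELK3 changes on top of it. Nothing in the labels says that replicates were separate cultures, so the p-values measure only the spread between these libraries, which may be technical. These are bulk libraries, in which fewer cells that express a gene and less RNA per cell cannot be told apart.

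The miR-200a mimic carries the mature miRNA shown here so that its seed can be set against the ID transcripts. Its bases 2 to 8, the seed that pairs with target RNAs, are in capitals (RefSeq, GRCh38.p14, chr1:1167916-1167937, plus strand).
hsa-miR-200a-3p: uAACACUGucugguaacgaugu
The matching site in a transcript, CAGTGTT, was absent from the annotated 3′UTRs of ID1 (678 bases), ID2 (776 bases), ID3 (523 bases) and ID4 (1489 bases), and it was present in 18.2% of 19113 genes with a 3′UTR. ELK3 had 1 such match in its 2655 bases. A match is a description of the letters and not of binding, and no match says only that these letters are not in the annotated window.

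In GENCODE coordinates on GRCh38, ID1 lies at chr20:31605283-31606515 on the plus strand and ID3 at chr1:23557918-23559794 on the minus strand, and neither overlaps another annotated gene. ID2 lies at chr2:8678845-8684453 on the plus strand, where it overlaps ID2-AS1 on the other strand, and ID4 lies at chr6:19837386-19840684 on the plus strand, where it overlaps AL022068.1 on the other strand. The 250 bases before the RefSeq start are shown for ID1 (chr20:31605039-31605288, plus strand) and ID3 (chr1:23559502-23559751, minus strand), the most strongly read members, since the plasmid encodes an ETS factor. Capitals mark GGAA on either strand (TTCC where it lies on the other strand), the core of the sites that ETS factors bind.
ID1: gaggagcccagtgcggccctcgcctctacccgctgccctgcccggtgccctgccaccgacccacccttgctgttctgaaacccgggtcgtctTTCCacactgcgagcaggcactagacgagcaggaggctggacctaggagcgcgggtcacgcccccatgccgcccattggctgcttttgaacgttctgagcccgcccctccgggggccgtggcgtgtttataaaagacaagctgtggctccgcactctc
ID3: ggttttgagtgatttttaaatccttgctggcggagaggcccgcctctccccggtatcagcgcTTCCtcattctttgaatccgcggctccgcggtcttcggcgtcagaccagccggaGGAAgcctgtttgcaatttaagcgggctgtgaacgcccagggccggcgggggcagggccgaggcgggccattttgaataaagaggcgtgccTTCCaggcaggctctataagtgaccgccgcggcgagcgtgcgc
The ID2 window, not shown, is chr2:8681806-8682055 on the plus strand. Because the windows are set by the RefSeq start, those of ID2 and ID3 lie inside the GENCODE spans given above. GGAA occurred 1 time in the ID1 promoter, 3 times in that of ID3, 4 times in that of ID2 and 1 time in that of ID4, and at least 1 copy stood in 92.7% of 35116 promoters of the same length, with a median of 3. Searched on both strands, the E-box CANNTG was absent from the ID1 and ID3 windows and occurred 1 time each in those of ID2 and ID4, against 61.8% of all promoters with a copy. GGCGCC, a GC-rich SMAD motif, and GTCTAGAC, the palindromic SMAD box, were absent from all 4 windows and present in 16.4% and 0.182% of promoters. TGACG, the core of cyclic AMP response elements, occurred 1 time in the ID3 window and in none of the other 3, and 21.2% of promoters held it. The EGR1 motif GCGNGGGCG occurred 1 time in the ID2 window and 3 times in that of ID4 (8.41% of promoters). Only the 250 bases before each start were searched, so an absent motif says nothing of sequence farther away, and a match does not show binding.

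Across the 6 libraries, total counts ranged from 3055915 to 4868004, and 3 counts, taken as the smallest detectable value, corresponded to 0.611 to 0.979 CPM (reads relative to the TMM-scaled library size). This floor covers counting error only. As a check of the labels, ELK3 counts were 618 and 509 (control), 493 and 505 (miR-200a) and 406 and 337 (ELK3-labelled), so the gene was not higher in the third group. Its log2 fold change there was -0.23 against miR-200a (edgeR quasi-likelihood test, adjusted p = 0.354). Against the control it was -0.79 and was called lower (same test, adjusted p = 0.0117). For miR-200a alone against the control, the log2 fold change of ELK3 was -0.56 and was not called (same test, adjusted p = 0.232). The plasmid carries the protein coding region, whereas QuantSeq reads polyadenylated RNA near its 3′ end. How plasmid reads were counted is not given in the sources used here, so the label could not be checked from ELK3 counts. The paper reports that the plasmid brought ELK3 mRNA (qRT-PCR) and protein (western blot) back to control levels under miR-200a. It does not say whether those cells were the ones sequenced. The second ELK3-labelled library lay farthest from the other groups, at a root mean square distance of 0.71 to 0.77 on the log2 CPM scale, against 0.58 to 0.63 for the first, and the pair were 0.56 apart. Of the 6 markers that should be high in this line, VIM, CD44, CAV1, AXL, MSN and ZEB1 were all read in every library, ESR1 was at 0 and PGR at 1 count or fewer. CDH1 had 1 and 0 counts in the control, 11 and 12 under miR-200a, and 3 and 3 in the ELK3-labelled libraries. None of its 3 differences was called (edgeR, adjusted p from 0.108 to 0.233). CLDN3 had 7 counts or fewer and GATA3 14 to 42, whereas CLDN4 went against its expected absence at 179 to 234 CPM. VIM stood at 956 CPM in the second ELK3-labelled library and at 1854 to 2463 CPM in the other 5, and CD44 at 218 and 195 CPM in the ELK3-labelled libraries and at 296 to 337 CPM in the other 4. Their part in the results below was not tested. Of markers of other cell types, DCN and LUM were at 0 in every library, and PTPRC, CD3E, PECAM1 and ADIPOQ had at most 10, 5, 13 and 1 counts.

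ID3 had 596 and 393 counts in the control, 566 and 521 under miR-200a, and 307 and 181 in the ELK3-labelled libraries. Scaled to library size, these were 133 and 128 CPM, 118 and 106 CPM, and 72.7 and 42.5 CPM. Both ELK3-labelled libraries were below all 4 others, and the miR-200a libraries were both below the control libraries by a smaller step. The group means were 130 ± 3.18 CPM (SD, n = 2) in the control, 112 ± 8.03 CPM (SD, n = 2) with miR-200a and 57.6 ± 21.3 CPM (SD, n = 2) in the ELK3-labelled libraries.

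With miR-200a alone, ID3 had a log2 fold change of -0.22 against the control (standard error 0.21, adjusted p = 0.814), with a 95% interval of -0.68 to 0.24. No difference was detectable beyond the spread between replicates, which was pooled over all 3 groups and so includes the ELK3-labelled pair. With only the control and miR-200a groups fitted, ID3 had a value of -0.21 (standard error 0.094, edgeR adjusted p = 0.201). In the ELK3-labelled libraries, it fell by 0.96 on the log2 scale against miR-200a (standard error 0.21, adjusted p = 0.0199, 95% interval -1.43 to -0.48), which left 0.515 of the level. Against the control it fell by 1.18 (standard error 0.22, adjusted p = 0.00886, 95% interval -1.66 to -0.70), which left 0.441 of the level. The comparisons share libraries, so these values are not independent of each other. Without the second ELK3-labelled library, ID3 fell by 0.66 against miR-200a and fell by 0.87 against the control. That fit leaves 1 ELK3-labelled library, whose spread is then taken from the other groups, so its adjusted p is not given. The call against miR-200a was lost when either library of the control or of miR-200a was left out, and the call against the control was lost without either control library. Those fits also leave a group with 1 library, so their adjusted p is not given. The value against miR-200a was -0.96 without either control library, and -0.88 and -1.03 without the first and second miR-200a library. Against the control it was -1.15 and -1.20 without the first and second control library.

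**Figure D1:**
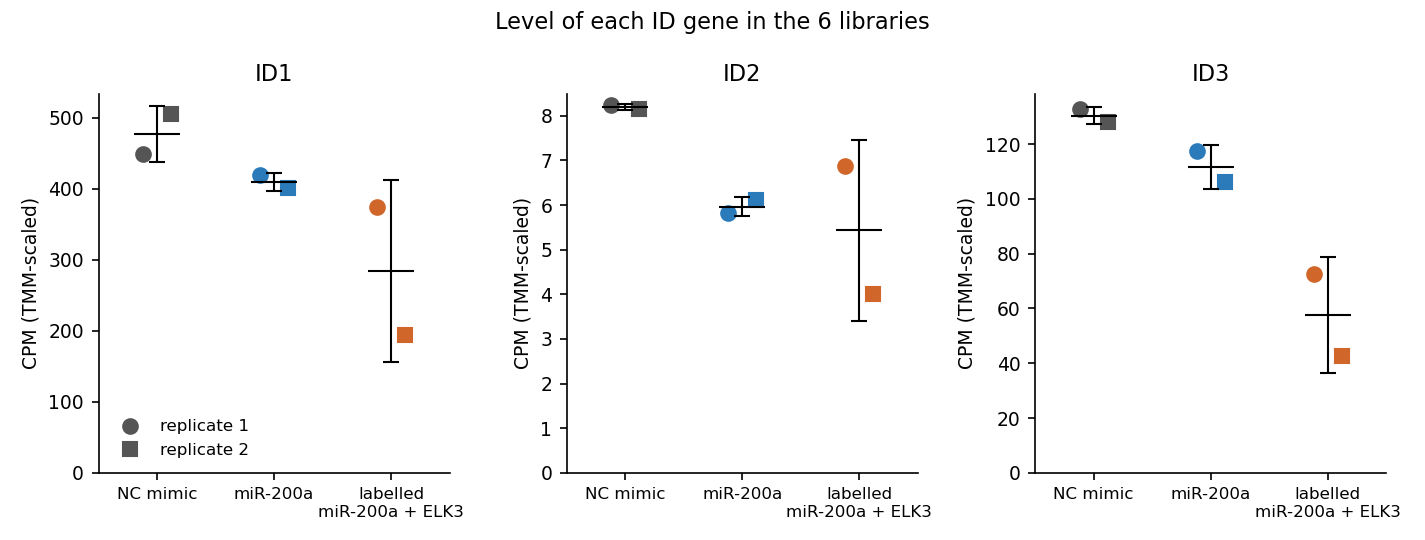
CPM (linear axis from 0) of ID1, ID2 and ID3, a panel for each gene, in the NC mimic, miR-200a and ELK3-labelled groups, with 1 point for each library, a line at the mean of the 2 libraries and error bars of 1 SD. ID3 stood at 72.7 and 42.5 CPM in the ELK3-labelled libraries and at 106 to 133 CPM in the other 4.

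ID1, the family member with the most reads, had 2018 and 1547 counts in the control, 2019 and 1969 under miR-200a, and 1583 and 823 in the ELK3-labelled libraries. These were 449 and 505 CPM, 419 and 401 CPM, and 375 and 193 CPM. The order of the groups was that of ID3, and none of them overlapped, but the ELK3-labelled libraries lay far apart from each other. The means were 477 ± 39.2, 410 ± 12.7 and 284 ± 128 CPM (SD, n = 2 in each).

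The log2 fold change of ID1 was -0.22 for miR-200a against the control (standard error 0.24, adjusted p = 0.851, 95% interval -0.74 to 0.31). In the ELK3-labelled libraries, it was -0.53 against miR-200a (standard error 0.24, adjusted p = 0.163, 95% interval -1.06 to -0.0019) and -0.75 against the control (standard error 0.24, adjusted p = 0.0657, 95% interval -1.28 to -0.22). None of the 3 differences passed the threshold of an adjusted p of 0.05. The value rested on which library was used: without the first ELK3-labelled library it was -1.08 against miR-200a and -1.28 against the control, and without the second -0.17 and -0.37. Each of these fits leaves 1 ELK3-labelled library, so the gap between the pair no longer counts in the spread, and their adjusted p is not given.

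ID2, which is known to bind RB-family proteins as well as E proteins, was read at a low level. It had 37 and 25 counts in the control, 28 and 30 under miR-200a, and 29 and 17 in the ELK3-labelled libraries. These were 8.24 and 8.16 CPM, 5.81 and 6.11 CPM, and 6.87 and 4.0 CPM. Both control libraries were above the other 4, and the ELK3-labelled libraries lay on either side of the miR-200a libraries. Its log2 fold changes were -0.46 for miR-200a against the control (adjusted p = 0.755, 95% interval -1.23 to 0.32), -0.13 for the ELK3-labelled libraries against miR-200a (adjusted p = 0.830, 95% interval -0.94 to 0.67) and -0.59 against the control (adjusted p = 0.294, 95% interval -1.39 to 0.20). The interval against the control held both 0 and a fall of the size seen for ID3. Without the second ELK3-labelled library, the value against miR-200a turned to 0.16. The antisense gene ID2-AS1 had 15 and 3, 5 and 9, and 4 and 5 counts in the same order, and since the strand setting of the counting is not given, reads of the pair cannot be told apart.

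ID4, a member with a more restricted pattern of expression, had 3 counts in the first control library and 0 in each of the other 5. It did not pass the filter on low counts, no fold change was computed, and 0 counts allow up to 3 counts, or 0.611 to 0.979 CPM. The members read in these cells were ID1, ID3 and, at low counts, ID2.

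**Figure D2:**
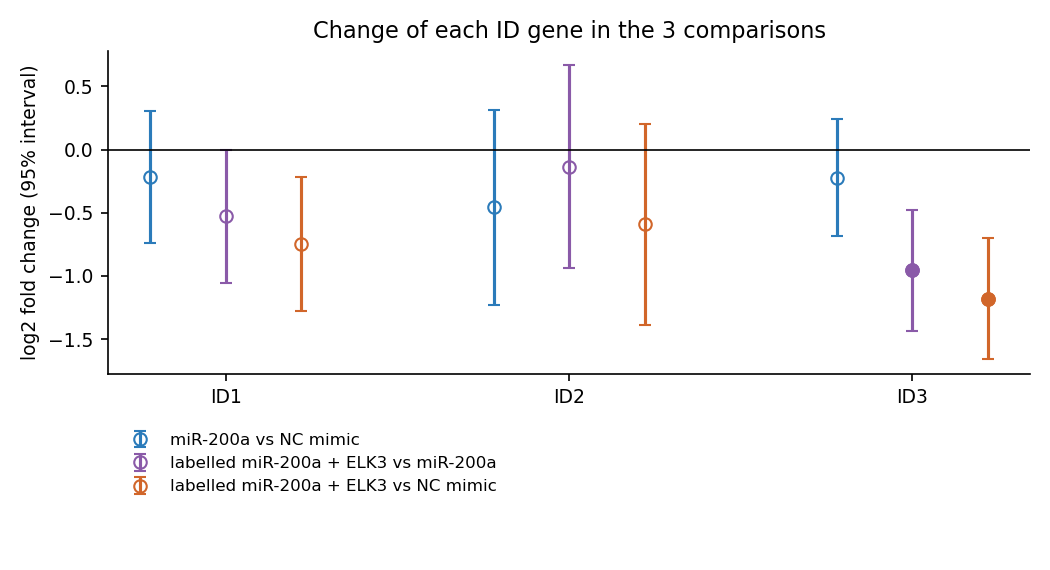
Log2 fold changes of ID1, ID2 and ID3 (vertical axis) with bars for their 95% intervals in the 3 comparisons, which share libraries, and filled points at an adjusted p under 0.05. The intervals of ID3 lay below 0 in both comparisons of the ELK3-labelled libraries (-1.43 to -0.48 and -1.66 to -0.70), and all 3 intervals for miR-200a against the control spanned 0.

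Of the 3 members tested, none was called for miR-200a against the control, where 0.269% of 12650 genes were called and 0.0553% were called lower. In the test on all 6 libraries, none of the 3 had an unadjusted p under 0.05 there either, and none was called in any of the 14 alternative settings. With edgeR on only the 2 compared groups, the unadjusted p was 0.00594 for ID1 (adjusted 0.0668), 0.199 for ID2 and 0.0347 for ID3 (adjusted 0.201). That fit leaves the ELK3-labelled libraries out of the spread, and 999 of all tested genes were called in it. In the ELK3-labelled libraries, 1 of the 3 was lower against miR-200a and 1 of 3 against the control, where 5.91% and 5.95% of all tested genes were called lower and 12.9% were called in either direction in each, and the 1 was ID3 in both. All 3 members had both miR-200a libraries below both control libraries, a separation that 26.1% of all genes showed in that direction. ID1 and ID3 were separated in the same way between the ELK3-labelled and miR-200a libraries (28% of all genes), and all 3 members between the ELK3-labelled and control libraries (27.6% of all genes). With 2 libraries a group, such a separation was common among all genes.

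The summed level of the 4 genes was 591 and 641 CPM in the control, 543 and 513 CPM under miR-200a, and 454 and 240 CPM in the ELK3-labelled libraries. The second of the latter pair held the lowest sum. ID1 supplied 76.0% to 82.5% of these reads. ID1 had 3.39 and 3.94 reads per ID3 read in the control, 3.57 and 3.78 under miR-200a, and 5.16 and 4.55 in the ELK3-labelled libraries. The ratio was higher in both libraries of the last group than in the other 4, and ID3 made up 16.0% and 17.7% of the family's reads there, against 20.0% to 22.5% elsewhere. This shift within the family was not tested. The ratio is of reads and does not compare the number of transcripts of the genes.

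As background, BMP ligands bind paired receptors that phosphorylate SMAD1, SMAD5 and SMAD9, and these join SMAD4 to switch on the ID genes, while SMAD6 and SMAD7 feed back on the receptors. Of a list of 46 BMP pathway genes, chosen with earlier results of these data known, 25 were tested. For miR-200a against the control, 0 of the 25 were called by edgeR, 5 had an unadjusted p under 0.05, and 2 were called by DESeq2, beside 9.24% of all 12650 genes with such a p and 88 genes called by DESeq2. In the ELK3-labelled libraries, 1 rose and 1 fell against miR-200a, and 1 rose and 2 fell against the control, where 12.9% of all tested genes were called in each comparison. An unadjusted p under 0.05 was found for 6 and 10 of the 25, and for 30.6% of all genes in both comparisons. The median log2 fold change of the 25 genes was -0.05, -0.18 and -0.15 in the 3 comparisons, beside -0.02, 0.02 and 0.01 over all tested genes.

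The gene that rose was BMP4, a ligand of this pathway. It stood at 124 and 114 CPM in the control, 209 and 185 CPM under miR-200a, and 412 and 356 CPM in the ELK3-labelled libraries. The 3 groups did not overlap, and their order was the reverse of that of ID3. The log2 fold change of BMP4 was 0.73 for miR-200a against the control (standard error 0.14, adjusted p = 0.0715), and it rose by 0.97 for the ELK3-labelled libraries against miR-200a (standard error 0.13, adjusted p = 0.00336) and by 1.69 against the control (standard error 0.14, adjusted p = 0.000177). The call against miR-200a was lost with limma, an alternative test (adjusted p = 0.0610), and when either miR-200a library was left out. The call against the control held in all 15 settings tried.

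None of the 6 tested receptors and co-receptors and none of the 4 signalling SMADs passed the test in edgeR, and 1, 1 and 3 of the receptors and 1, 0 and 1 of the SMADs had an unadjusted p under 0.05 in the 3 comparisons. BMPR2, the type II receptor, had log2 fold changes of -0.21, -0.18 and -0.39 for miR-200a against the control, for the ELK3-labelled libraries against miR-200a and for the ELK3-labelled libraries against the control, with adjusted p from 0.121 to 0.750. ACVR1, a type I receptor, had values of -0.31, -0.62 and -0.93, the last with an adjusted p of 0.0600, and BMPR1A, another type I receptor, of 0.05, -0.27 and -0.22. ACVR2B, a type II receptor named here after its values were seen, went the other way with miR-200a. It was at 22.3 and 24.5 CPM in the control, 44.0 and 46.7 CPM under miR-200a, and 36.7 and 31.5 CPM in the ELK3-labelled libraries, and the 3 groups did not overlap. Its log2 fold changes were 0.96 (adjusted p = 0.0715), -0.41 (0.145) and 0.55 (0.0796). The first was called in 5 of the 15 settings, among them the fit of only the 2 compared groups (5.45e-05). That fit leaves the ELK3-labelled libraries out of the spread, and 999 of all tested genes were called in it, beside 34 in the test on all 6 libraries. SMAD1 had log2 fold changes of -0.05, -0.14 and -0.19, SMAD5 of -0.34, 0.12 and -0.23, and the shared partner SMAD4 of -0.17, 0.11 and -0.06. SMAD5 was read at 167 to 228 CPM and SMAD1 at 6.63 to 9.79 CPM across the 6 libraries.

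The genes of the list that fell were RUNX2 and SMAD7. RUNX2, a transcription factor of bone development, was at 59.9 and 69.2 CPM in the control, 48.8 and 50.1 CPM under miR-200a, and 22 and 17.9 CPM in the ELK3-labelled libraries. All 4 of the other libraries were above this group, in which RUNX2 fell by 1.31 on the log2 scale against miR-200a (adjusted p = 0.00348) and fell by 1.69 against the control (adjusted p = 0.000867). The call of RUNX2 against miR-200a was lost without either miR-200a library. SMAD7 fell by 1.39 against the control (adjusted p = 0.0427), from 10.0 and 21.9 CPM to 5.68 and 6.11 CPM. Its adjusted p was 0.0828 when only these 2 groups were fitted and 0.118 with limma. The call of SMAD7 was also lost when any control or miR-200a library was left out, and without the second control library its log2 fold change was -0.76. SMAD6 had 10 and 3 counts in the control, 26 and 25 under miR-200a, and 11 and 7 in the ELK3-labelled libraries, and none of its 3 differences passed (adjusted p from 0.0948 to 0.744).

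A list of 25 ID partners, regulators and genes downstream of ID proteins had 19 members tested. It was chosen with earlier results of these data known, so its counts describe the list and are no test of enrichment. For miR-200a against the control, 1 rose and 1 fell, beside 0.269% of all tested genes called in either direction and 0.0553% called lower. None of the 19 was called there with a replicate block or with limma. In the ELK3-labelled libraries, 6 fell against miR-200a and 5 against the control, and none rose in either, beside 5.91% and 5.95% of all tested genes called lower. An unadjusted p under 0.05 was found for 8 and 7 of the 19, beside 30.6% of all genes in both comparisons. The median log2 fold change was -0.09, -0.25 and -0.38, beside the medians of all tested genes given above.

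Of the E proteins that ID proteins bind, TCF3 and TCF12 were tested and did not pass. TCF3 was at 94.9 and 94.0 CPM in the control, 99.9 and 103 CPM under miR-200a, and 113 and 127 CPM in the ELK3-labelled libraries, and its largest log2 fold change was 0.35 (the ELK3-labelled libraries against the control, adjusted p = 0.114). TCF12 lay between 67.0 and 73.4 CPM in all 6 libraries, with log2 fold changes of 0.01, -0.04 and -0.04. TCF4 did not pass the filter: it had 4 and 22 counts in the control, 2 and 3 under miR-200a, and 5 and 0 in the ELK3-labelled libraries. USP1, a deubiquitinase known to stabilise ID proteins, was at 197 to 213 CPM in the control and miR-200a libraries and at 285 and 247 CPM in the ELK3-labelled ones, a log2 fold change of 0.42 against miR-200a that missed the threshold (adjusted p = 0.0548).

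A pair of other helix-loop-helix repressors, HES1 and BHLHE40, fell in the ELK3-labelled libraries. HES1, a repressor downstream of Notch whose autorepression ID proteins can block, was at 2093 and 2055 CPM in the control, 1585 and 1567 CPM under miR-200a, and 845 and 453 CPM in the ELK3-labelled libraries. These groups did not overlap, and HES1 fell by 1.28 on the log2 scale against miR-200a (standard error 0.22, adjusted p = 0.00803) and fell by 1.68 against the control (standard error 0.23, adjusted p = 0.00229). The first call was lost with limma (adjusted p = 0.0802) and without either miR-200a library, and the second with limma (0.0530) and without either control library. BHLHE40, a repressor of the circadian clock, was at 86.2 and 86.5 CPM, 78.9 and 75.0 CPM, and 24.9 and 14.3 CPM in the same order. It fell by 1.97 against miR-200a (adjusted p = 0.00154) and fell by 2.14 against the control (adjusted p = 0.000710). In miR-200a against the control, the log2 fold changes were -0.40 for HES1 (adjusted p = 0.654) and -0.17 for BHLHE40 (adjusted p = 0.875).

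Among regulators of the ID genes, EGR1 and ATF3 are transcription factors known to act on the ID1 promoter, EGR1 as an activator and ATF3, with SMAD3, as a repressor. EGR1 was at 849 and 854 CPM in the control, 491 and 520 CPM under miR-200a, and 215 and 211 CPM in the ELK3-labelled libraries. It fell in every comparison: it fell by 0.75 with miR-200a (adjusted p = 0.0289), fell by 1.25 for the ELK3-labelled libraries against miR-200a (adjusted p = 0.000389) and fell by 2.00 against the control (adjusted p = 2.72e-05). The call with miR-200a alone was lost with a replicate block (0.0834), with limma (0.268) and with any 1 control or miR-200a library left out. ATF3 was at 96.4 and 78.0 CPM, 91.8 and 92.7 CPM, and 35.8 and 36.7 CPM in the same order, and it fell by 1.35 against miR-200a and fell by 1.27 against the control (adjusted p = 0.00194 and 0.00167). Its call against miR-200a was lost without the second miR-200a library, and its call against the control without the first control library. The replicates of the third group lay close together for EGR1 and ATF3, unlike those of ID1 and ID3.

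Genes listed as downstream of ID proteins included 2 that were called. THBS1, an anti-angiogenic matrix protein repressed by ID1, was at 83.5 and 76.7 CPM, 81.8 and 77.2 CPM, and 44.8 and 31.5 CPM in the order used above, and fell by 1.06 against miR-200a (adjusted p = 0.00789) and fell by 1.07 against the control (adjusted p = 0.00697). The call against miR-200a was lost with limma (adjusted p = 0.0579) and without either miR-200a library, and the call against the control was lost without either control library. CDKN1C, a cyclin-dependent kinase inhibitor, was at 20.3 and 23.5 CPM in the control, 56.9 and 50.5 CPM under miR-200a, and 30.3 and 24.7 CPM in the ELK3-labelled libraries. It rose by 1.30 with miR-200a (adjusted p = 0.0328) and fell by 0.97 for the ELK3-labelled libraries against miR-200a (adjusted p = 0.0122). The rise was not called with a replicate block (0.0705), with limma (0.144) or with any 1 control or miR-200a library left out. Nor was the fall called with limma (0.0604) or without either miR-200a library. Its difference of 0.34 between the ELK3-labelled and control libraries was not called (adjusted p = 0.290).

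**Figure D3:**
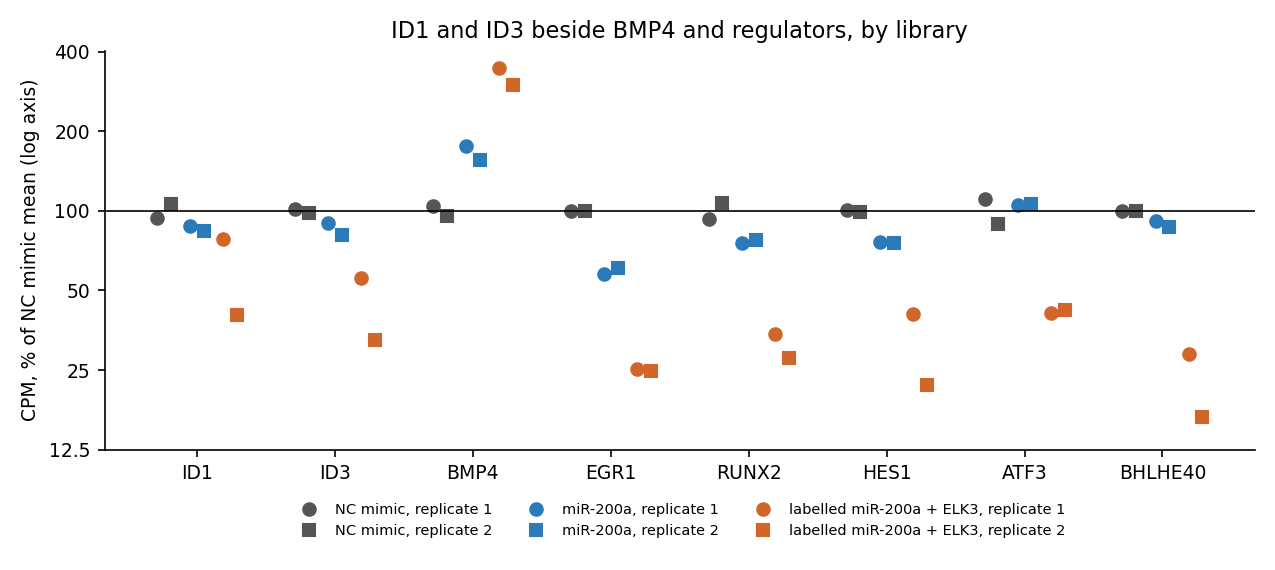
Level of ID1, ID3 and 6 genes of the lists in each of the 6 libraries, as a percentage of the gene's mean CPM in the control libraries (log axis). ID3 stood at 90.1% and 81.4% with miR-200a and at 55.7% and 32.6% in the ELK3-labelled libraries, and BMP4 at 347% and 299.6% in the latter.

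**Figure D4:**
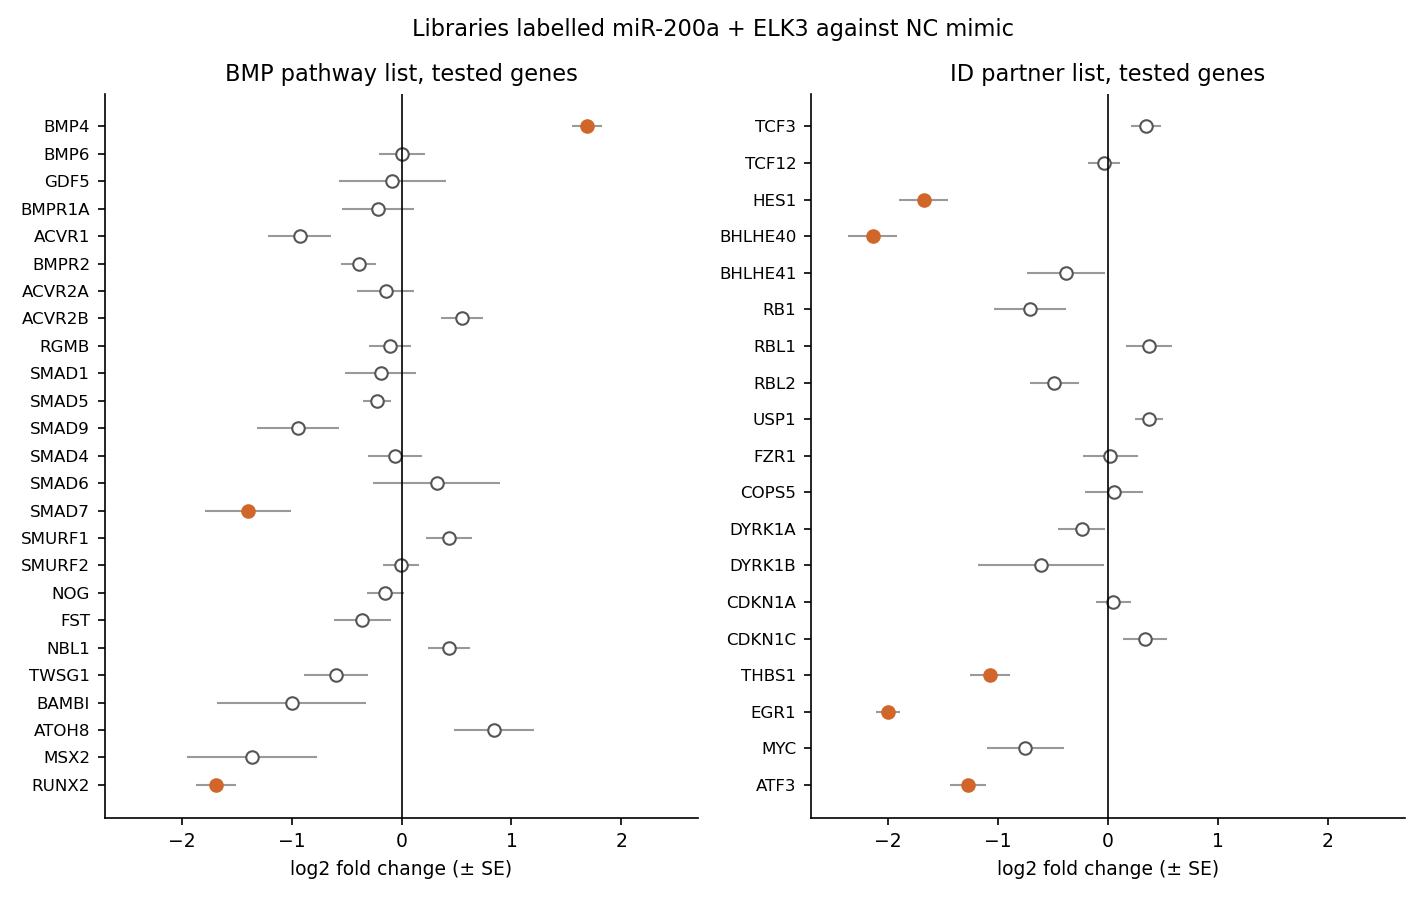
Log2 fold changes (horizontal axis, bars of 1 standard error) of the tested genes of the BMP pathway list (25 genes) and the ID partner list (19 genes) in the ELK3-labelled libraries against the control, with filled points at an adjusted p under 0.05. BMP4 reached 1.69 and was the gene called higher, and BHLHE40 at -2.14 was the lowest of the genes called lower.

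The genes whose pattern was most like that of each ID gene were found by Pearson's r of log2 CPM over the 6 libraries among 9937 genes with a mean above 3. For ID3 these were POGZ (r = 0.998), a chromatin protein, BTN2A2 (r = 0.997), a butyrophilin, and DUSP6 (r = 0.997), a phosphatase that acts on ERK. DUSP6 was at 390 and 367 CPM in the control, 362 and 342 CPM under miR-200a, and 248 and 156 CPM in the ELK3-labelled libraries. For ID1 the genes were MAFG and CHMP5 (both r = 0.998) and KLF15 (r = 0.995), and for ID2 they were ZNF721 (r = 0.992), DNAAF5 (r = 0.991) and ANTXR2 (r = 0.991). CHMP5 stood at 200 and 104 CPM in the ELK3-labelled libraries, a gap like that of ID1. The 6 points share their libraries, their depth and the 3 groups, so these values describe likeness of pattern and nothing more.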

How the data were processed

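RNA of 6 MDA-MB-231 libraries was sequenced with the QuantSeq 3′ kit. The values the authors deposited are raw counts, listed by gene symbol in a file per library, and the submitters' processing notes name Bowtie2, edgeR and hg19 without versions or roles. The paper names ExDEGA for its differential analysis. The counting program, annotation and strand setting are not given in the sources used here. Each library had 25737 lines and 24462 symbols, and counts of the 286 symbols on several lines were summed. Total counts were 3055915 to 4868004, which sets the precision of low genes.

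edgeR 4.0.16 under R 4.3.3 was used for the tests (TMM, filterByExpr with a minimum count of 10, which left 12650 genes, and the quasi-likelihood test on all 6 libraries with group as the only term and 3 residual degrees of freedom). Benjamini-Hochberg adjustment ran over all tested genes, with a threshold of 0.05. A 95% interval is the log2 fold change and its standard error with the t quantile of the moderated degrees of freedom. The procedure was tested on simulated data. The members and gene lists were chosen with earlier results of these data known. Named were the 4 members, ELK3, 14 genes of the lists chosen for their role, other list genes with an adjusted p under 0.05 in any comparison, and for each tested member the 3 genes (mean log2 CPM above 3) with the highest r. HES1, USP1 and the SMADs belong to the 14.

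Alternatives were DESeq2 1.42.0, upper-quartile scaling, no filter, a minimum of 10 counts in every library, only the 2 compared groups, a replicate block, limma 3.58.1 on quantile-normalized log2(count + 1), each library left out, and, chosen after seeing the data, a block with crossed numbers. Replicate numbers come from the sample labels, which do not tie equal numbers together, and deviations of same-numbered libraries had correlations of -0.0030, -0.036 and -0.11 in the 3 comparisons, so the numbers were not taken as pairs. The files hold no coordinates. GENCODE release 29 (GRCh38) supplied gene positions and 3′UTRs, and sequences came from RefSeq on GRCh38.p14, in which all 4 members matched.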

Additional observations from a re-analysis of the deposited data

How the results depend on the processing

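Of the 9 differences of ID1, ID2 and ID3, 8 kept their sign in all 14 alternatives, and ID2 against miR-200a turned to 0.16 without the second ELK3-labelled library (-0.57 to 0.16 over the leave-one-out fits). The fall of ID3 in the ELK3-labelled libraries against miR-200a was -0.96 and not called with only the 2 compared groups (adjusted p = 0.0634) and -1.06 with limma (0.0878), and over the fits that leave out 1 library it ranged from -1.39 to -0.66. Against the NC mimic it was -1.26 with limma (0.0636) and -1.60 to -0.87 over the leave-one-out fits. ID1 passed the threshold against miR-200a with no filter (-0.55), with leave-one-out values of -1.08 to -0.17. Against the NC mimic it passed with DESeq2 (-0.76), no filter (-0.74), upper-quartile scaling (-0.81) and the crossed block (-0.79), with leave-one-out values of -1.28 to -0.37. ID4 passed no filter on low counts and gave no value. With miR-200a against the NC mimic, 34 of all tested genes were called, beside 88 with DESeq2, 230 with no filter, 999 with only the 2 compared groups, 13 with the replicate block, 22 with the crossed block, 4 with limma, and 0 to 1001 over the leave-one-out fits. In the ELK3-labelled libraries against miR-200a, 1637 were called, beside 2490 with no filter, 579 with only the 2 compared groups, 107 with limma and 39 to 4730 over the leave-one-out fits. Against the NC mimic these counts were 1629, 2525, 598, 391 and 90 to 4721. The most calls came without the first ELK3-labelled library in both comparisons of that group, and the fewest without a library of the group it was compared with. Of the BMP pathway list, miR-200a against the NC mimic gave 2 calls with DESeq2, 2 with no filter, 5 with only the 2 compared groups and 0 to 5 over the leave-one-out fits. The ELK3-labelled libraries gave 5 with no filter, 1 with limma and 0 to 11 over the leave-one-out fits against miR-200a, and 5 with no filter and 2 to 10 over the leave-one-out fits against the NC mimic. Of the ID partner list, miR-200a against the NC mimic gave 4 with only the 2 compared groups, 0 with the replicate block, 0 with limma and 0 to 4 over the leave-one-out fits. The ELK3-labelled libraries gave 3 with limma and 2 to 12 over the leave-one-out fits against miR-200a, and 8 with no filter and 2 to 12 over the leave-one-out fits against the NC mimic. Where a group is left with 1 library, that library is assumed to vary like the other groups. The causes of these changes were not tested. With the replicate block, ID3 was called at adjusted p = 0.0191 and 0.00881, and the block changed no call of an ID gene. The crossed block was chosen after seeing the data, because deviations of same-numbered libraries of the ELK3-labelled and NC mimic groups had a correlation of -0.11. Depth limits ID2 and ID4, which had at most 37 counts in a library.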
